A study of Homo sapiens with 6 samples.

Results

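The genes described here are ATF4, its transcriptional targets and the genes that supply cells with amino acids. They were chosen by name from the gene column of the FPKM table, by symbol in the older nomenclature, and number 46 of 25277 genes in all. FPKM are fragments mapped to a gene, scaled by transcript length and library size. By label the samples were Jeko and Rec-1, established human cell lines from mantle cell lymphoma, which is a cancer of B cells. Both lines carried Cas9 and a tet-on (doxycycline-inducible) vector, and every library came from cells given doxycycline for 48 h. Each line gave 1 empty-vector control and 2 libraries in which a guide RNA (sgRNA) targeted the nuclear receptor gene NR4A1, labelled sgRNA 1 and sgRNA 2. These were stable transduced lines, so each library stands for 1 transduced population, and the labels do not say whether guides of the same number are the same guide. The labels do not say that libraries came from separate cultures, so p-values measure only the spread between these libraries. The series concerns NR4A1 inhibition together with ibrutinib, and these libraries address NR4A1 targeting alone.

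ATF4 is the transcription factor at the end of the integrated stress response. Kinases that sense amino acid shortage, unfolded protein in the endoplasmic reticulum, heme loss or viral RNA phosphorylate the initiation factor eIF2, which lowers general translation while ATF4 mRNA is translated more. ATF4 protein then pairs with C/EBP proteins on composite DNA elements and activates genes for amino acid synthesis, amino acid uptake and tRNA charging, together with feedback and growth inhibitors such as TRIB3, DDIT4 and EIF4EBP1. Because this control acts on translation and protein stability, the mRNA level of ATF4 itself is not a measure of ATF4 protein.

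The sequence that ATF4 with a C/EBP partner is known to bind has the form TGATGNAA, where N is any base. It was searched on both strands of the RefSeq promoter windows (GRCh38.p14), which run from 250 bases before to 50 bases after each gene's start, and no other motif was searched. Of the 43 members that passed the expression filter given below, 35 had a window, and 16 of them held the motif (45.7%). Among all 27305 genes with a window, 1217 held it (4.46%). By role, the motif was found in 3 of 8 regulators, 1 of 4 effectors, 0 of 3 serine and one-carbon enzymes, 1 of 3 other enzymes, 4 of 6 transporters and 7 of 11 tRNA synthetases and XPOT (63.6%). Outside the members it was found in 0 of 9 other cytosolic synthetases and scaffold genes and in 1 of 14 mitochondrial synthetases (7.14%). A match is a description of the letters, not evidence of binding.

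The promoter of ASNS, asparagine synthetase, is shown at length because ASNS was 1 of 3 members at least 2-fold apart between the guides in Rec-1, and stood apart in Jeko in the same direction. For the others, PSAT1 and SARS, no motif match was found, either for lack of a match or for lack of a window. The 150 bases lie at chr7:97872409-97872558 on the minus strand, and the motif, in capitals, begins 68 bases before the start.
ASNS: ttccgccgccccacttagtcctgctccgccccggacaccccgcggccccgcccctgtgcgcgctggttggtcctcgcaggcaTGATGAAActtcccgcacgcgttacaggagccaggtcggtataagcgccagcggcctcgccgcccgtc

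Shorter windows of 38 bases are given for 7 members to show the motif in the 3 roles that held most of the matches, the regulators, the transporters and the synthetases. Each reads 5′ to 3′ on the gene's strand with the motif in capitals. CEBPG, JDP2 and SLC1A5 hold TGATGCAA as written and ATF3 holds TGATGGAA. In contrast, SLC1A4, GARS and AARS hold the motif on the opposite strand, so that it appears as its reverse complement. The windows lie at chr1:212565196-212565233 (ATF3, plus), chr19:33374051-33374088 (CEBPG, plus), chr14:75427986-75428023 (JDP2, plus), chr19:46784894-46784931 (SLC1A5, minus), chr2:64989372-64989409 (SLC1A4, plus), chr7:30594825-30594862 (GARS, plus) and chr16:70289676-70289713 (AARS, minus).
ATF3: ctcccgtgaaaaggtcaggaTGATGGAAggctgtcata
CEBPG: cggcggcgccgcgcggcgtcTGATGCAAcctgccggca
JDP2: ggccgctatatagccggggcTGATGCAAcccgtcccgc
SLC1A5: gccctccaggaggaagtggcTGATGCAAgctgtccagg
SLC1A4: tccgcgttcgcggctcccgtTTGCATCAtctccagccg
GARS: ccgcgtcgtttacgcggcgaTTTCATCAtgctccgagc
AARS: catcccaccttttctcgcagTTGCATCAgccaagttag

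The library labelled Rec-1 control did not resemble the other Rec-1 libraries. Across 10322 protein-coding genes its Pearson correlation was 0.9875 with the Jeko control, against 0.8047 and 0.8117 with Rec-1 sgRNA 1 and 2. CCND1 (cyclin D1) ranged from 442 to 815 FPKM over the Jeko libraries and was 495 in the library labelled Rec-1 control but 0.696 and 0.592 in the sgRNA libraries of that line. The summed level of 4 T cell markers was 2.69 to 5.69 FPKM in the Jeko libraries and the Rec-1 control but 102 and 120 in the Rec-1 sgRNA libraries, where CD3D led and CD8A was listed at 0. The summed level of 8 B cell markers lay between 919 and 1412 FPKM in the 6 libraries, with CD79A present in each. NR4A1 mRNA was 5.99, 3.89 and 4.44 FPKM in Jeko control, sgRNA 1 and sgRNA 2, and 11.6, 27.4 and 12.7 in Rec-1, a mean log2 difference of 0.10 (exact permutation test, two-sided p = 0.889, smallest possible 0.111). Every comparison with the Rec-1 control below carries these differences, and so does every comparison of Rec-1 sgRNA with Jeko sgRNA libraries. Their part in the results was not tested. The comparisons of guide 2 with guide 1 within a line use neither control.

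In Jeko, members of all roles were lower with sgRNA 1 and near the control with sgRNA 2. Values were compared as log2(FPKM + 1), and 43 members had a mean of at least 1 FPKM, as did 11400 genes in all. The median member difference from the Jeko control was −0.91 for sgRNA 1, with 37 members lower and 6 higher, and 0.10 for sgRNA 2, with 21 lower and 22 higher. Over all genes tested both medians were 0.00. At least 2-fold lower with sgRNA 1 were 19 members (44.2%), against 2.79% of all genes. With sgRNA 2, 0 members were at least 2-fold lower (3.18% of all genes) and 0 at least 2-fold higher (4.3%). These are differences between single libraries, so they are descriptions with no test. In bulk RNA, fewer cells that express a gene and less RNA per cell cannot be told apart.

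**Figure D1:**
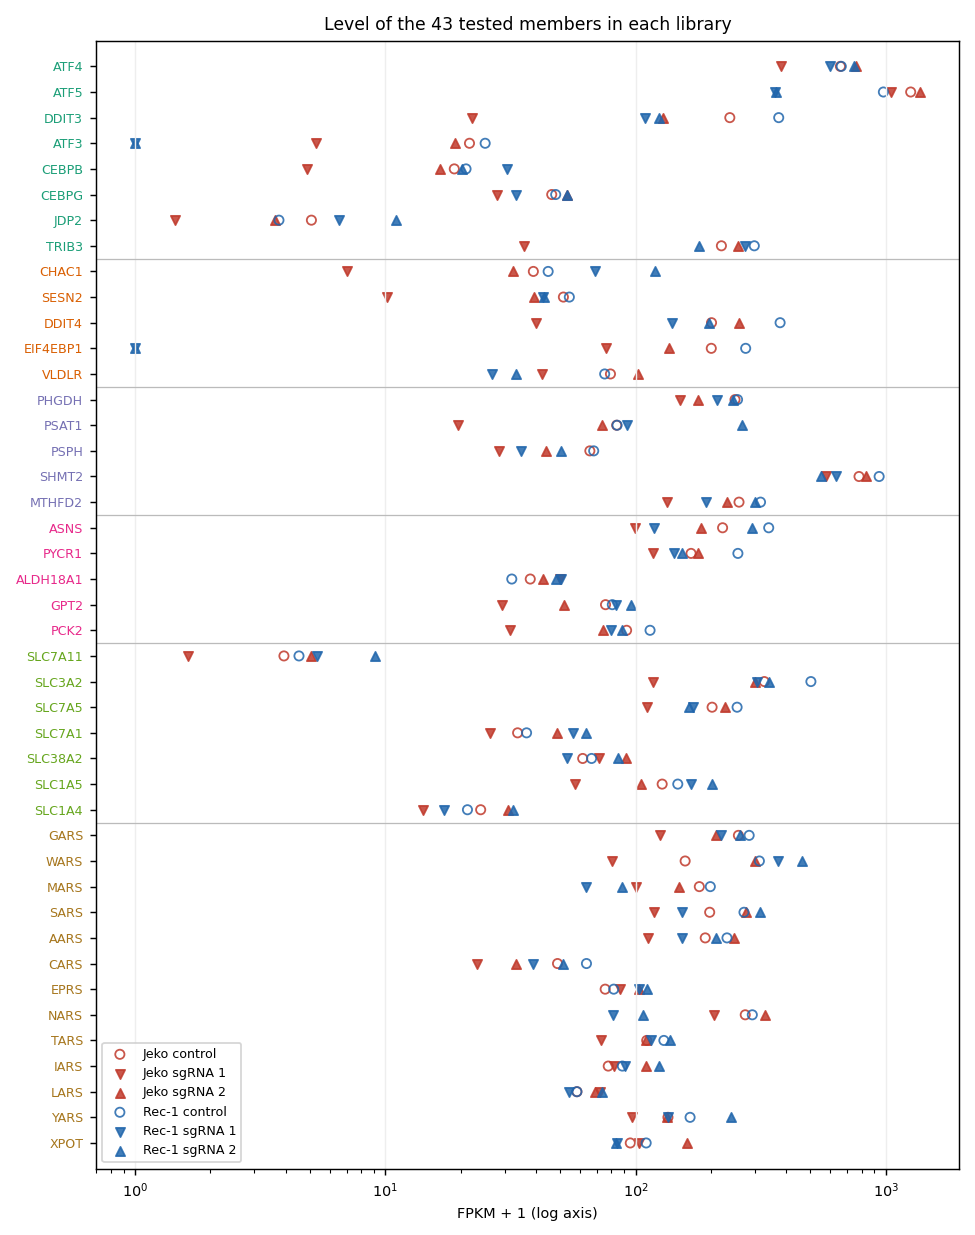
Level of the 43 members that passed the filter in each library, as FPKM + 1 on a log axis, grouped by role from regulators at the top to tRNA synthetases and XPOT at the bottom. Open circles are controls, downward triangles sgRNA 1 and upward triangles sgRNA 2, with Jeko in red and Rec-1 in blue. In Jeko the sgRNA 1 symbol lies left of the sgRNA 2 symbol for 41 of 43 members.

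The regulators are ATF4 and the bZIP factors and cofactors that act with it. ATF4 (chr22:39915700-39918688, GRCh37, plus strand) stood at 658 FPKM in the Jeko control, 379 with sgRNA 1 and 761 with sgRNA 2. In Rec-1 it was 663, 598 and 742 FPKM in the same order. The sgRNA 1 library was thus the lowest and the sgRNA 2 library the highest of its line in both cases. Over both lines the guide contrast for ATF4 was 0.66 (SE 0.26, limma adjusted p 1.00). Of the annotated pseudogenes, 4 are named after ATF4, so fragments could be shared between them.

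DDIT3 (CHOP, chr12:57910371-57915520, minus strand), a bZIP factor that promotes death under prolonged stress, had the lowest level relative to control of any member tested in Jeko sgRNA 1. It was 237, 21.2 and 127 FPKM in Jeko, so that 8.94% of the control level was left with sgRNA 1 and 53.7% with sgRNA 2. In Rec-1 it was 372, 108 and 123 FPKM. All 4 sgRNA libraries lay below both controls, yet the sgRNA difference over both lines was −1.92 (SE 0.69, limma adjusted p 0.216). DDIT3 overlaps MARS by 982 bases on the opposite strand, and whether counting used strand is not given in the sources used here, so the split between the 2 genes is uncertain.

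TRIB3 (chr20:343479-378203), a pseudokinase that binds ATF4 and restrains it, was 219, 34.9 and 256 FPKM in Jeko. The ratio of sgRNA 2 to sgRNA 1 was 7.33, the highest of the members with at least 1 FPKM on average. In Rec-1 the order was another one, with 297 FPKM in the control, 273 with sgRNA 1 and 179 with sgRNA 2. CEBPB, a C/EBP partner of ATF4, likewise had opposite guide orders in the lines, with log2 differences between guide 2 and guide 1 of 1.77 in Jeko and −0.59 in Rec-1. CEBPG, another partner, was higher with sgRNA 2 in both lines, by 0.92 and 0.68.

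ATF3 (chr1:212738676-212794119), a stress-induced repressor, was 20.7, 4.29 and 17.96 FPKM in Jeko. In the Rec-1 control it was 24.1 FPKM, and in both Rec-1 sgRNA libraries it was listed at 0. JDP2 (chr14:75894419-75940814), a bZIP repressor, was low throughout, at 4.07, 0.446 and 2.61 FPKM in Jeko and 2.76, 5.56 and 10.02 FPKM in Rec-1. Both Jeko sgRNA libraries were below their control for JDP2 and both Rec-1 sgRNA libraries above theirs. ATF5, a paralogue of ATF4 under the same translational control, was the most abundant member in Jeko, at 1257, 1052 and 1371 FPKM, and stood at 977, 360 and 362 FPKM in Rec-1. NUPR1, a stress-induced chromatin protein, was under 0.07 FPKM in every library and was not tested.

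Growth and stress effectors had the lowest median of the roles in Jeko sgRNA 1, at −2.33, with the regulators next at −1.88. CHAC1 (chr15:41245160-41248710), which degrades glutathione, was 38.0, 6.02 and 31.5 FPKM in Jeko and 43.7, 68.1 and 119 FPKM in Rec-1. Its Rec-1 sgRNA 2 level was thus the highest of the 6 libraries and its Jeko sgRNA 1 level the lowest. DDIT4 (chr10:74033678-74035794), an inhibitor of the growth kinase complex mTORC1, was 200.2, 39.0 and 259 FPKM in Jeko and 377, 139 and 195 FPKM in Rec-1. SESN2, which restrains mTORC1 when leucine is short, was 18.2% of control with Jeko sgRNA 1, 76.2% with Jeko sgRNA 2, and 77.9% and 79.0% with the Rec-1 guides. VLDLR, a lipoprotein receptor, was 52.7% and 129% of control in Jeko and 34.7% and 43.5% in Rec-1. STC2, a secreted glycoprotein, was under 0.04 FPKM in every library and was not tested.

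EIF4EBP1, whose protein 4E-BP1 blocks cap-dependent translation until mTORC1 phosphorylates it, was 199.8, 75.4 and 135 FPKM in Jeko. It was 275 FPKM in the library labelled Rec-1 control and listed at 0 in both Rec-1 sgRNA libraries. This was the largest difference from a control among the members. An exact 0 in an FPKM table can be a failed estimate, and whether this holds for EIF4EBP1 was not tested. VARS, the cytosolic valyl-tRNA synthetase gene that every cell needs, was listed at 0 in all 6 libraries. Zeros confined to the Rec-1 sgRNA libraries, as for EIF4EBP1 and ATF3, are another pattern, on which VARS has no bearing. Whether the zeros of ATF3 are failed estimates was not tested either.

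**Figure D2:**
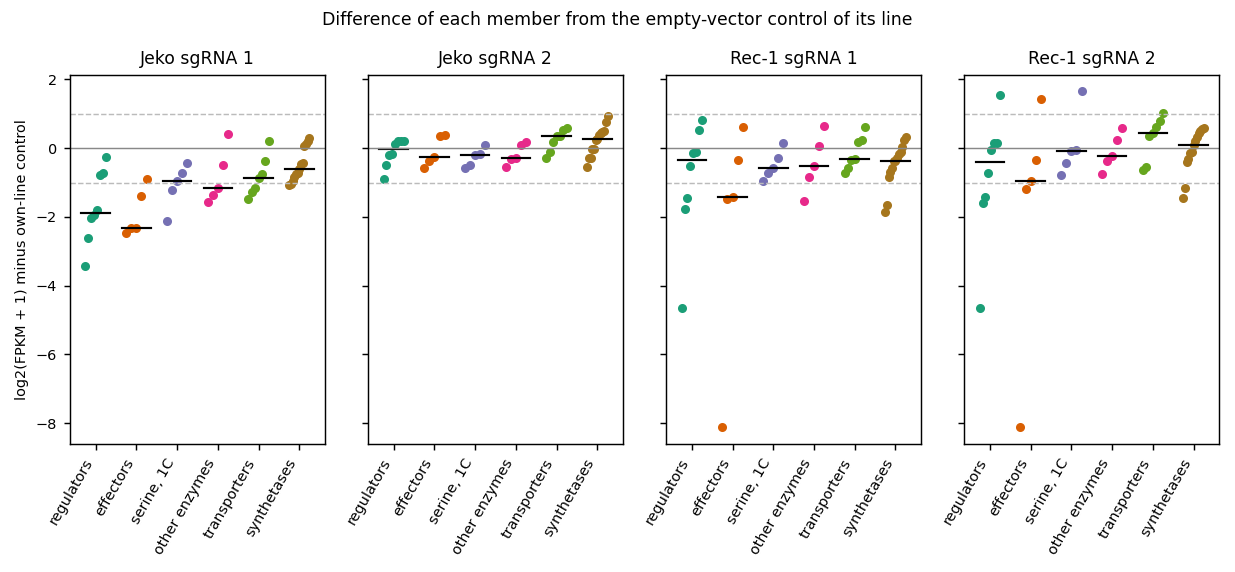
Difference of each member from the empty-vector control of its own line, on the log2(FPKM + 1) scale, for the 4 sgRNA libraries, with members grouped by role and sorted within it. Short black lines are role medians and dashed lines mark a 2-fold difference. In Jeko sgRNA 1 the medians run from −2.33 (effectors) to −0.61 (synthetases and XPOT), and points near −8 and −5 in Rec-1 are EIF4EBP1 and ATF3, listed at 0 in the Rec-1 sgRNA libraries.

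The serine pathway runs from a glycolytic intermediate through PHGDH, PSAT1 and PSPH to serine, which SHMT2 and MTHFD2 turn into one-carbon units in mitochondria. PSAT1 (chr9:80912041-80945009), the aminotransferase, was 83.1, 18.5 and 72.8 FPKM in Jeko and 83.4, 91.7 and 264 FPKM in Rec-1. The 2 controls were nearly equal, and sgRNA 2 was 3.94 times sgRNA 1 in Jeko and 2.88 times in Rec-1. PHGDH (chr1:120191034-120286841), the first enzyme, varied less, at 249, 150 and 177 FPKM in Jeko and 255, 210 and 244 FPKM in Rec-1. MTHFD2 (chr2:74413299-74444692) was 258, 133 and 231 FPKM in Jeko and 315, 189 and 299 FPKM in Rec-1. In both lines its sgRNA 1 library was the lowest and its sgRNA 2 library lay under the control. PSPH was 42.3% and 66.2% of control with the Jeko guides and 50.4% and 73.5% with the Rec-1 guides. SHMT2 lay between 549 and 940 FPKM, with guide 2 above guide 1 in Jeko and below it in Rec-1. ALDH1L2, a mitochondrial folate enzyme, was under 0.04 FPKM in every library and was not tested. Pseudogenes named after them are annotated for PSAT1 (4), PSPH (1) and MTHFD2 (7).

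Among the other enzymes, ASNS (chr7:97480989-97501854, minus strand), which makes asparagine from aspartate and glutamine, was 222, 98.9 and 182 FPKM in Jeko and 340, 117 and 292 FPKM in Rec-1. The sgRNA 1 libraries held 44.6% and 34.5% of their controls and the sgRNA 2 libraries 82.2% and 85.9%. PCK2 (chr14:24563262-24579807), the mitochondrial phosphoenolpyruvate carboxykinase, was 91.1, 30.4 and 73.4 FPKM in Jeko and 113, 79.1 and 87.3 FPKM in Rec-1. GPT2 (chr16:46918274-46965201), the mitochondrial alanine aminotransferase, was 74.9, 28.3 and 50.6 FPKM in Jeko but 79.8, 82.7 and 95.1 FPKM in Rec-1. Levels in Rec-1 thus spanned a narrow range for GPT2, and only the Jeko sgRNA libraries lay below the controls. PYCR1 and ALDH18A1 both serve proline synthesis. PYCR1 was 70.6% and 107% of control in Jeko and 55.2% and 59.4% in Rec-1, and ALDH18A1 was above its control in all 4 sgRNA libraries, from 113% to 159%. ALDH18A1 was also the 1 member with guide 2 below guide 1 in both lines.

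The transporters bring in cystine, large neutral amino acids, cationic amino acids, glutamine and serine. SLC3A2 (chr11:62623476-62656352), the heavy chain shared by several exchangers, was 326, 117 and 300.1 FPKM in Jeko and 501, 305 and 342 FPKM in Rec-1. Its light chain for cystine, SLC7A11 (chr4:139085251-139163503), was low throughout, at 2.93, 0.629 and 4.05 FPKM in Jeko and 3.52, 4.35 and 8.12 FPKM in Rec-1. Guide 2 was 6.44 times guide 1 for SLC7A11 in Jeko and 1.87 times in Rec-1, from levels at which few fragments count. SLC1A5 (chr19:47278140-47291851), which carries glutamine, was 127, 56.2 and 104 FPKM in Jeko and 147, 166 and 200.5 FPKM in Rec-1. All 3 transporters were lowest in Jeko sgRNA 1. Among the rest, SLC1A4, which carries neutral amino acids such as serine and alanine, was 57.0% and 129% of control in Jeko and 79.8% and 155% in Rec-1. SLC7A5, the leucine light chain, was 54.9% and 112% of control in Jeko and 66.2% and 64.3% in Rec-1. SLC7A1 for arginine and lysine and SLC38A2 for small neutral amino acids were higher than control with sgRNA 2 in both lines, by log2 differences of 0.52 and 0.58 in Jeko, and of 0.79 and 0.35 in the Rec-1 libraries.

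The tRNA synthetases charge tRNAs with their amino acids, and XPOT exports tRNA from the nucleus. SARS (chr1:109756540-109780804), for serine, was 197, 118 and 275 FPKM in Jeko and 270.2, 152 and 312 FPKM in Rec-1. Both lines gave the same picture, with sgRNA 1 lowest, the control between and sgRNA 2 highest. WARS (chr14:100800127-100843142), for tryptophan, was 157, 79.8 and 299 FPKM in Jeko and 312, 369 and 464 FPKM in Rec-1, so the Rec-1 control was at the level of Jeko sgRNA 2. NARS (chr18:55267888-55289445), for asparagine, was 273, 204 and 328 FPKM in Jeko and 292, 80.0 and 106 FPKM in Rec-1. The sgRNA libraries of the lines did not overlap for NARS, and the library labelled Rec-1 control lay between the Jeko sgRNA values. The remaining 9 synthetases ranged from 22.3 FPKM (CARS, for cysteine, in Jeko sgRNA 1) to 283 FPKM (GARS, for glycine, in the Rec-1 control). In Jeko sgRNA 1 their lowest share of control was 46.7% (CARS), with GARS at 48.3% and MARS, for methionine, at 55.8%. MARS was lower in Rec-1, at 31.6% of the library labelled control with sgRNA 1 and 44.2% with sgRNA 2. EPRS, LARS and IARS, for glutamate and proline, leucine and isoleucine, were above control in Jeko sgRNA 1, at 115%, 124% and 105%. XPOT was 109% and 170% of control in Jeko and 76.5% and 75.2% in Rec-1.

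Between the guides, in comparisons that use neither control, guide 2 was above guide 1 for most members in both lines. In Jeko it was higher for 41 of 43 members (46.2% of all genes tested) with a median difference of 0.88, against −0.02 over all genes. In Rec-1 it was higher for 35 of 43 (53.3% of all genes) with a median of 0.31, against 0.03. Guide 2 was higher in both lines for 34 of 43 members (79.1%) and for 27.8% of all genes. The lines share no library in this comparison, but members can move together within a library, and guides are matched by number only. The count of members is thus a description with no test. At least 2-fold higher with guide 2 were 19 members in Jeko (2.89% of all genes) and 3 in Rec-1 (1.81% of all genes), the last being ASNS, PSAT1 and SARS. At least 1.5-fold higher in both lines were 9 members (20.9%), against 1.43% of all genes, namely CEBPG, JDP2, CHAC1, PSAT1, MTHFD2, ASNS, SLC7A11, SLC1A4 and SARS.

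The roles differed in how the guides compared. In Jeko the median of guide 2 minus guide 1 was 1.95 for effectors, 1.54 for regulators and 1.02 for transporters, and 0.82, 0.63 and 0.59 for other enzymes, serine enzymes and synthetases with XPOT. In Rec-1 the highest medians were 0.53 for the serine enzymes and 0.40 for synthetases with XPOT, while the regulators had 0.10. Regulators and effectors thus led in Jeko, while in Rec-1, where the effectors had 0.31, neither role led. ATF3 and EIF4EBP1, listed at 0 with both Rec-1 guides, enter the Rec-1 medians of these roles as a difference of 0. The rank of the regulators in Rec-1, next to the other enzymes at 0.14, is therefore not firm. The members furthest apart in Jeko, TRIB3, DDIT3, DDIT4, CHAC1 and SESN2, differed by 1.95 to 2.84 there and by −0.61 to 0.80 in Rec-1. They were picked by their Jeko values, so their smaller Rec-1 range is not a result about them. PSAT1, the next in Jeko at 1.92, differed by 1.52 in Rec-1. Members with the promoter motif had medians of 0.89 in Jeko and 0.42 in Rec-1, and 15 of 16 were higher with guide 2 in both lines. Those with a window but no motif had 1.22 and 0.19, and 14 of 19 were higher in both. The 8 without a window had 0.61 and 0.32, with 5 of 8.

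**Figure D3:**
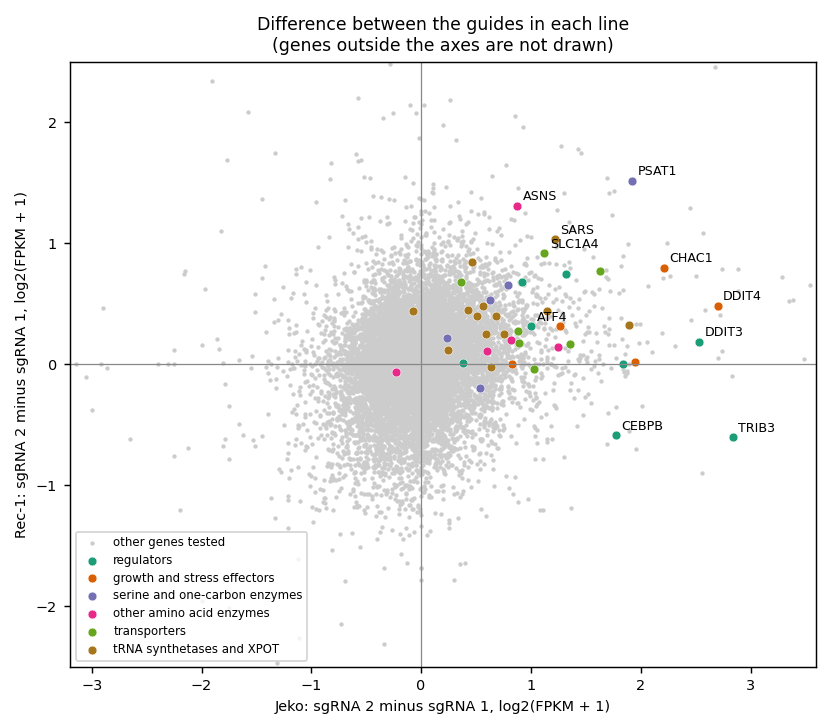
Guide 2 minus guide 1 in Jeko (x axis) and Rec-1 (y axis), both on the log2(FPKM + 1) scale, with all genes tested in grey and the 43 members coloured by role. Of the members 34 lie in the upper right, where guide 2 is higher in both lines, and PSAT1, ASNS and SARS have the highest Rec-1 values.

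The guide contrast was then fitted with limma over both lines, with 1 library of each guide in each line. Unlike the differences within a line, this fit also held both controls, which enter its SE and p-values. It matched guides by number across the lines, although the labels do not say that the numbers name the same guide. At an adjusted p under 0.05 it called 0 of 43 members and 2 of 11400 genes (0.0175%). At an unadjusted p under 0.05 it found 11 members (25.6%), all higher with guide 2, against 2.25% of all genes. These were SARS (log2 difference 1.13, SE 0.21), ASNS (1.09, SE 0.23), SLC1A4 (1.02, SE 0.23), CEBPG, MTHFD2, AARS, PSAT1, DDIT4, SLC7A11, PSPH and YARS, and the limma adjusted p of each was 1.00. Over the alternatives their adjusted p ranged from 0.71 to 1.00. Relative depth was 0.873 for Jeko sgRNA 1 and 1.10 for Jeko sgRNA 2, taking the Jeko control as 1, and 0.687 for Rec-1 sgRNA 2. The low values of Rec-1 sgRNA 1 gave no ratio of this kind. The part of depth in the guide difference was not tested.

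The listed synthetases were set beside synthetases outside the list. Guide 2 was higher in both lines for 11 of the 12 listed synthetases (91.7%), with medians of 0.58 in Jeko and 0.42 in Rec-1. Of 10 other cytosolic synthetases and scaffold genes tested, 2 were higher in both (medians −0.15 and 0.01). Among 16 mitochondrial synthetases it was 0, with medians of −0.32 and −0.16. KARS, for lysine, is an example of the cytosolic ones outside the list, at 149.1 and 109 FPKM with guides 1 and 2 in Jeko, and 153 and 132 in the Rec-1 libraries. This is a description of 3 lists, with no test of the difference between them.

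**Figure D4:**
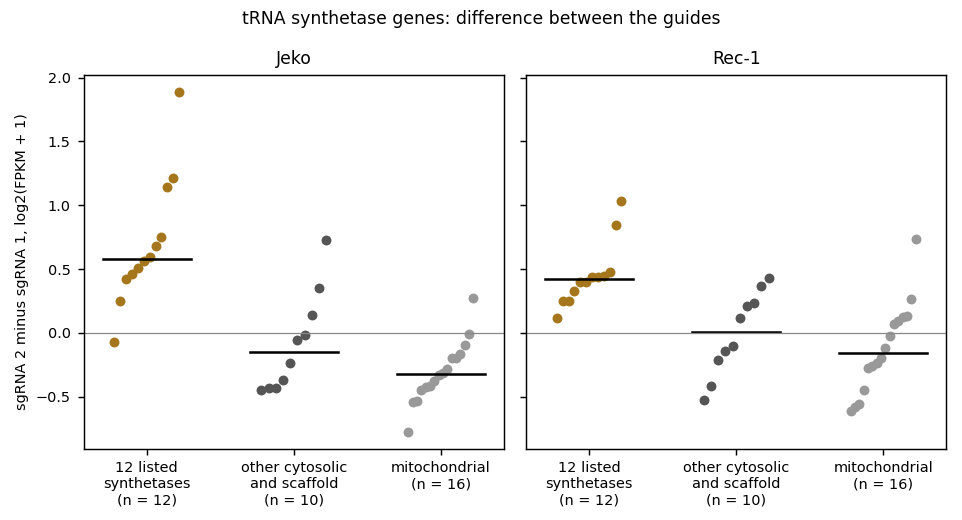
Guide 2 minus guide 1 on the log2(FPKM + 1) scale for tRNA synthetase genes in Jeko (left) and Rec-1 (right), each point a gene and each line a list median. The 12 listed synthetases have medians of 0.58 and 0.42, while those of the other cytosolic genes (n = 10) are −0.15 and 0.01 and those of the mitochondrial genes (n = 16) −0.32 and −0.16.

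Other genes around the pathway were read from lists. Of 14 genes upstream of ATF4 (the eIF2 kinases, eIF2 and eIF2B subunits and the eIF2 phosphatase regulators), 6 were higher with guide 2 in both lines, with medians of −0.17 in Jeko and 0.18 in Rec-1. PPP1R15A, itself an ATF4 target that brings the phosphatase to eIF2, was 50.3, 15.0 and 106 FPKM in Jeko and 106, 31.9 and 55.9 FPKM in Rec-1. Of 12 other one-carbon and transport genes tested, 5 were higher with guide 2 in both lines, with medians of 0.01 and 0.12. SLC6A9, the glycine transporter, was 12.3, 2.30 and 18.9 FPKM in Jeko and 12.6, 9.35 and 13.1 FPKM in Rec-1. Of 6 amino acid sensing genes, 2 were higher in both lines. PPP1R15A, SLC6A9 and KARS were picked as examples after their values were seen. Chaperones of the endoplasmic reticulum and XBP1, which belong to other branches of the unfolded protein response, had a guide difference with a median of 1.56 in Jeko, where 7 of 8 were at least 2-fold higher with guide 2, and of 0.07 in Rec-1, where 0 of 8 were.

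The question the design puts first is the difference between sgRNA and control over both lines. In this comparison limma called 0 of 43 members at an adjusted p under 0.05, against 28 of 11400 genes (0.246%). At an unadjusted p under 0.05 it found 6 members (14.0%), all lower with sgRNA, against 21.1% of all genes. They were DDIT3, ATF3, EIF4EBP1, PSPH, MARS and CARS, and their limma adjusted p lay between 0.202 and 0.222. PSPH differed by −0.80 (SE 0.27) and CARS by −0.66 (SE 0.24). Without the library labelled Rec-1 control the comparison rests on Jeko and called 0 members, against 51 of 11400 genes. Without the Jeko control it rests on Rec-1 and called 3 of 43 members, against 2180 of 11400 genes. In Jeko alone limma called 0 of 43 members, against 0.439% of all genes, and 0 at an unadjusted p under 0.05, against 11.3%. The 2 Jeko guides stand far apart for these genes, and the fit takes them as replicates, so that DDIT3 at −2.16 had an SE of 1.11 (limma adjusted p 0.510).

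In Rec-1, relative to the library labelled control, 9 members were at least 2-fold lower with sgRNA 1 (15.1% of all genes) and 7 with sgRNA 2 (14.4%). With sgRNA 2, 4 members were at least 2-fold higher (15.0%), namely JDP2, CHAC1, PSAT1 and SLC7A11. Member medians were −0.37 and −0.08, against −0.02 and 0.00 over all genes. Limma called 3 of 43 members, all lower, against 19.2% of all genes. ATF5 fell by 1.43 on the log2 scale (SE 0.25, limma adjusted p 0.0306). ATF3 fell by 4.65 (SE 0.81, limma adjusted p 0.0317) and EIF4EBP1 by 8.11 (SE 0.41, limma adjusted p 0.00282) on the log2(FPKM + 1) scale. The size of these last differences depends on the pseudocount, since both genes were listed at 0 with either guide. For the same reason the Rec-1 guides add no spread of their own to the SE and p-values of ATF3 and EIF4EBP1. The same holds in the comparisons between the lines below. Without Rec-1 sgRNA 1 or without Rec-1 sgRNA 2 the call of EIF4EBP1 was the only 1 left (limma adjusted p 0.0370 and 0.0371). ATF5 did not pass without Jeko sgRNA 1 (limma adjusted p 0.0630) or without Jeko sgRNA 2 (0.0629). With the guide number as a block, 5 of 43 members were called, MARS and NARS being added, against 1949 of 11400 genes.

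The Rec-1 and Jeko sgRNA libraries can be compared without a control, 2 against 2. Limma called 4 members, all lower in Rec-1, against 25.9% of all genes. EIF4EBP1 was lower by a log2 difference of −6.67 (SE 0.33, limma adjusted p 0.00174), ATF3 by −3.32 (SE 0.66, adjusted p 0.0346), ATF5 by −1.73 (SE 0.20, adjusted p 0.0106) and NARS by −1.48 (SE 0.32, adjusted p 0.0414). For each of them the Rec-1 sgRNA libraries lay below both Jeko sgRNA libraries, which adds no support, since the call picked them from these same libraries. On the other side, CHAC1 was higher in Rec-1 by 2.59 (SE 0.84), JDP2 by 1.90 (SE 0.55), SLC1A5 by 1.24 (SE 0.36) and GPT2 by 1.21 (SE 0.34), with limma adjusted p between 0.0703 and 0.0940. The 4 calls held when the Rec-1 control was dropped, but this comparison uses no control. The drop could not move the estimates (ATF3 at −3.32, SE 0.66, in both fits), so it is no check on that control. Without Rec-1 sgRNA 1 or without Rec-1 sgRNA 2 only EIF4EBP1 passed, without Jeko sgRNA 1 NARS did not pass (adjusted p 0.0918), and without Jeko sgRNA 2 neither ATF5 (0.0603) nor NARS (0.128) did. In that last fit, which leaves Jeko sgRNA 1 alone on the Jeko side, DDIT3 was higher in Rec-1 by 2.39 and SESN2 by 2.07. With the guide number as a block limma called 8 members, adding CHAC1, JDP2, PSAT1 and SLC1A5, all higher in Rec-1. In these Rec-1 libraries T cell markers were 102 and 120 FPKM in sum, and CCND1 was 0.696 and 0.592 FPKM. What part the cells behind these marker levels had in the differences was not tested.

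**Figure D5:**
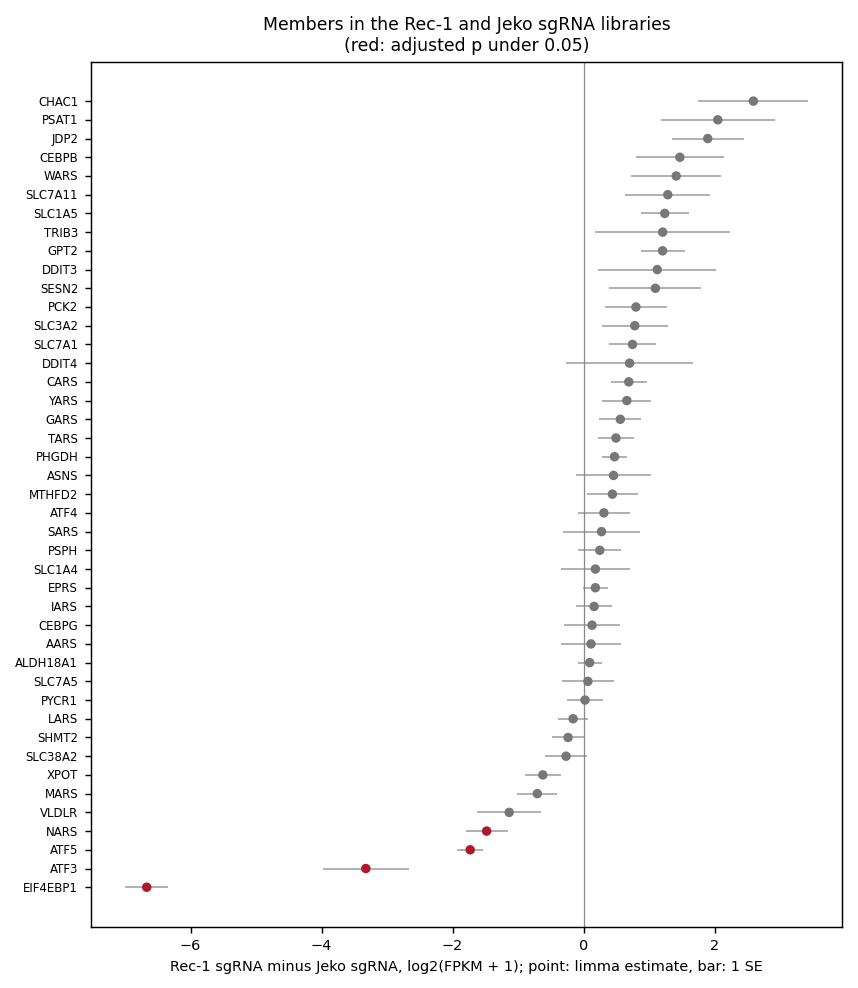
Difference between the Rec-1 and Jeko sgRNA libraries (2 against 2) for each of 43 members, on the log2(FPKM + 1) scale, with the limma estimate as a point and 1 SE as a bar. The 4 red points passed an adjusted p under 0.05 and are all lower in Rec-1, from −6.67 for EIF4EBP1 to −1.48 for NARS.

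Whether the sgRNA difference was the same in the 2 lines was tested as an interaction. Limma called 1 member, EIF4EBP1, against 6.94% of all genes, with a difference of −7.13 (SE 0.57, limma adjusted p 0.0112), lower in Rec-1. It did not pass without Jeko sgRNA 2 (limma adjusted p 0.0511), Rec-1 sgRNA 1 (0.0820) or Rec-1 sgRNA 2 (0.0801). Without Jeko sgRNA 1, ATF3 was called as well (−4.45, limma adjusted p 0.0492). The library labelled Rec-1 control enters this test, and the comparison cannot be made without it. Between the 2 controls the median member difference, Rec-1 minus Jeko, was 0.20 against −0.01 over all genes. In the Rec-1 control 37 of 43 members (86.0%) were higher, against 46.7% of all genes, and 0 were at least 2-fold apart, against 2.51%. The largest were WARS at 0.99 and DDIT4 at 0.91.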

How the data were processed

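RNA-seq of 6 libraries (1 empty-vector control and 2 NR4A1 sgRNA libraries in each of 2 lines) was analysed. The authors deposited 1 table of FPKM values for 25277 genes, per the file headers; TopHat and hg19 are named in the submitters' processing notes. The program that computed FPKM, the annotation, the use of strand and library depth are not given in the sources used here. Of the gene names, 28 had become calendar dates. FPKM are not counts, so no count test was used.

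Members and lists were chosen with earlier results of these data known. Values were taken as log2(FPKM + 1). The filter kept the 11400 genes whose mean reached 1 FPKM, 43 of 46 members among them. Then limma 3.58.1 (R 4.3.3, eBayes with trend) tested 6 comparisons, with Benjamini-Hochberg adjustment over all genes tested and a threshold of 0.05. All 6 libraries entered each fit. The lone control of a line was assumed to vary like the sgRNA libraries, and the guides served as replicates. The limma script was tested on simulated data. NR4A1 was tested by exact permutation. Relative depth was the commonest ratio of values under 0.05 FPKM in a library and the Jeko control, where at least 10% of such genes shared it, and it was shared by 0.712% in Rec-1 sgRNA 1. No counting interval could be given without absolute depth.

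Coordinates are GENCODE v44lift37 on GRCh37, by current symbols found through RefSeq synonyms; where genes share an older name, the one whose current symbol adds 1 to it was taken. Promoters are RefSeq, GRCh38.p14. By annotation 12 members overlap another protein-coding gene, and 13 have a pseudogene named after them, so their values are uncertain. Given with every library's value were the 20 members listed by rule (ATF4, DDIT3, TRIB3, CHAC1, ASNS, EIF4EBP1, ATF3, JDP2, DDIT4, PSAT1, MTHFD2, PHGDH, PCK2, GPT2, SLC7A11, SLC3A2, SLC1A5, WARS, SARS, NARS), and the rest by counts, ranges or examples. Alternatives were a pseudocount of 0.1, a mean of at least 5 FPKM, no filter, median-centring, the guide number as a block and each library left out; adjustment for transcript length and protein-coding genes alone were added after the data were seen. Python 3.11.15, numpy 2.4.6, pandas 2.3.3 and matplotlib 3.10.9 were used for the rest.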

Additional observations from a re-analysis of the deposited data

Results flagged for a closer look

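The sgRNA difference of EIF4EBP1 differed between the lines by the limma interaction test, at −7.13 on the log2 scale (SE 0.57, adjusted p 0.0112), and it was the 1 member called. In Rec-1 both sgRNA libraries list it at 0, while in Jeko they hold 75.4 and 135 FPKM.

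For 6 members both sgRNA libraries lay on one side of the control in Jeko and on the other in Rec-1, without passing the interaction test. The share of all genes tested with this pattern was not counted, so the 6 are a description and not a trait of the members. Higher relative to control in Rec-1 than in Jeko were CHAC1 (interaction 2.40, SE 1.45, limma adjusted p 0.416), JDP2 (2.33, SE 0.95, adjusted p 0.266), PSAT1 (2.04, SE 1.51, adjusted p 0.50), GPT2 (1.12, SE 0.58, adjusted p 0.359) and SLC1A5 (1.03, SE 0.63, adjusted p 0.419). XPOT went the other way, above its control in Jeko and below it in Rec-1 (−0.83, SE 0.48, limma adjusted p 0.394). The library labelled Rec-1 control enters each of these values.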

How the results depend on the processing

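Over the alternatives 56 values moved, 23 lost and 2 gained a call, and 0 called values reversed. The other 448 kept their side of the threshold or, for counts, stayed within 1.5 times, and 2 of them are medians near 0 that changed sign. The cause was not tested except where fewer libraries or genes enter. Over both lines 28 genes were called; no filter gave 12, protein-coding genes alone 0, length adjustment 0, and leaving out a library 11 to 2180, with 0 to 3 members called (0 with all libraries). For the interaction, 791 genes became 318 at a mean of 5 FPKM and 75 to 454 with a library left out, with 0 to 2 members called. Jeko alone gave 50 genes, and 3 with protein-coding genes alone or 9 with length adjustment. For Rec-1, 3 members became 1 with no filter, 5 with protein-coding genes alone, 5 with length adjustment and 1 to 3 with a library left out, and 2184 genes became 1083 at 5 FPKM and 657 to 2180. Between the sgRNA libraries of the lines, 4 members became 2 with no filter, 8 with protein-coding genes alone, 8 with length adjustment and 1 to 4 with a library left out, and 2947 genes became 1549 at 5 FPKM and 803 to 2940. The guide contrast called 2 genes, and 0 with no filter, protein-coding genes alone, length adjustment or any library left out. Rec-1 sgRNA 2 had 4 members at least 2-fold higher, 2 at 5 FPKM, and Jeko sgRNA 2 had 0, 1 with length adjustment. Median-centring, which shifts the library medians by up to 0.11 against each other, moved the Jeko sgRNA 2 median from 0.10 to −0.01, and length adjustment moved that of Rec-1 sgRNA 2 from −0.08 to 0.05, so neither has a firm sign.

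A replicate block on the guide number left 9 genes called over both lines and 428 for the interaction. In Rec-1 it called 5 members and 1949 genes, and between the lines 8 members and 2643 genes. Same-numbered guides deviated together with r of 0.0998 over 11400 genes and 0.2084 over 10322 protein-coding genes. There are 2 such pairs, and the labels do not say that numbers match, so they are taken to share only a number. A comparison that needs the library left out could not be fitted and gave no value.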
